A study of Mus musculus with 8 samples.

Results

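Chromatin accessibility was examined at 7 genes that encode transcription factors of tissue regulatory T cells (Tregs): Gata3, Nfil3, Maf, Id2, Zeb2, Bhlhe40 and Ahr. The members were every region of the deposited count table whose gene symbol was 1 of these 7, counted once per distinct position, which gave 50 of the 46512 regions used. Open chromatin was read by ATAC-seq, an assay that uses a transposase to tag accessible DNA for sequencing, in 8 libraries in 4 groups of 2. All cells were flow-sorted from C57BL/6 Foxp3RFP mice, in which a red fluorescent protein marks cells that express Foxp3, and each library pooled 3 mice whose age the labels do not give. The groups were RFP+ Tregs of male spleen, RFP+ Tregs of male visceral adipose tissue (VAT), RFP+ Tregs of female VAT, and RFP- CD4+ T cells of male VAT. The spleen libraries are labelled male, although the series' design text names spleen Tregs of both sexes. Labels do not say whether the 2 libraries of a group came from separate mice, so the p-values measure the spread between these libraries, which may be technical. Levels are given as counts of a region for a fixed number of counts in the library (CPM), after TMM scaling, and a CPM mean carries its SD over 2 libraries (n = 2) after ±.

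Tregs restrain other T cells and depend on the factor Foxp3. Those that settle in fat and other tissues carry an added program of genes, set by DNA-binding factors, that equips them to live in the tissue and to answer the cytokine IL-33. Among the members, Gata3 and Maf are activators that also shape effector T cells. Ahr is a receptor that turns small molecules into a transcriptional signal, Nfil3, Bhlhe40 and Zeb2 act largely as repressors, and Id2 binds E proteins and keeps them off DNA.

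Most calls at these genes lay in narrow regions (under 1000 bp) away from their promoters, and most were gains in male VAT Tregs. Across the table, in male VAT against spleen Tregs, 2121 regions were called higher, 1668 of them narrow, and 957 lower. The pattern was thus not particular to these genes. Against male spleen Tregs, regions of Nfil3 and Zeb2 rose by up to 3.04 ± 0.47 and 2.87 ± 0.37 on the log2 scale, where ± is a standard error. Against female VAT Tregs, 4 of the 14 Zeb2 regions and 1 of the 5 Ahr regions were higher in males, where 2.04% of all regions were. Only 1 of these 5 calls, at Zeb2, was left without male VAT Treg replicate 1, and 1 without female VAT Treg replicate 2. Against RFP- CD4+ T cells of the same tissue, regions of Gata3, Maf, Ahr, Nfil3 and Zeb2 were higher in Tregs, but only 4 of the 12 calls of that comparison were left without male VAT Treg replicate 1, and those of Gata3 regions higher in Tregs, of Maf and of Zeb2 were among the lost. Wide regions over the promoters of Gata3, Nfil3 and Id2 and over 1 of 4 annotated Zeb2 starts were called in none of the comparisons by edgeR's quasi-likelihood test. Their smallest edgeR adjusted p was 0.437. The promoter windows of the other Zeb2 starts lay in no member region.

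The regions differ in breadth. Of the 50 regions, 33 were under 1000 bp and 17 were of 1000 bp or more, the widest being 11462 bp at the Gata3 promoter. Gata3 had 13 regions, Zeb2 14, Maf 10, Nfil3 5, Ahr 5, Bhlhe40 2 and Id2 1. In all, 13 regions lay inside the gene they were assigned to, and the farthest lay 315 kb from Maf. The assignment is the authors' and does not show that a distant region acts on that gene. All 50 regions passed the filter on low counts.

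Promoter sequence from RefSeq (GRCm38.p6) was at hand for 4 members, and the 250 bases before an annotated start are shown for each, where that window lay whole inside a wide region of the member. Zeb2 has 4 annotated starts in that table, of which 1 met this. They are given 5′ to 3′ on the minus strand, on which all 4 genes run, with CG dinucleotides in capitals because stretches rich in CG mark the promoters that stay open in many cell types. The windows are chr2:9878601-9878850 for Gata3, chr13:52981040-52981289 for Nfil3, chr12:25096093-25096342 for Id2 and chr2:45110278-45110527 for Zeb2.
Gata3: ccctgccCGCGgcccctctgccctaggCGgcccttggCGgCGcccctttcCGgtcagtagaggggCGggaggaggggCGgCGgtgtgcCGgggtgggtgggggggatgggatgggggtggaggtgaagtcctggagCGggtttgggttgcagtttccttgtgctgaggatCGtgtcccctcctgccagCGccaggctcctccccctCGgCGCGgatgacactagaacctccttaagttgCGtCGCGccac
Nfil3: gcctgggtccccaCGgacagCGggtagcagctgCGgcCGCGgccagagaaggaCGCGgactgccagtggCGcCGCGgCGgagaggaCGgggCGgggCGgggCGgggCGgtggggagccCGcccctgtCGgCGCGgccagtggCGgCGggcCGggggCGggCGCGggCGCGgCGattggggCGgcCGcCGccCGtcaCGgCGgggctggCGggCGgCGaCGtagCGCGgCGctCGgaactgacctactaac
Id2: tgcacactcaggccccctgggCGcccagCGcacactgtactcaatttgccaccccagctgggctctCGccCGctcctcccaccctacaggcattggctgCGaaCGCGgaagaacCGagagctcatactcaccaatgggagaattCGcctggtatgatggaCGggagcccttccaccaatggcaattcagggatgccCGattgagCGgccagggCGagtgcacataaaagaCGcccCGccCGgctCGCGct
Zeb2: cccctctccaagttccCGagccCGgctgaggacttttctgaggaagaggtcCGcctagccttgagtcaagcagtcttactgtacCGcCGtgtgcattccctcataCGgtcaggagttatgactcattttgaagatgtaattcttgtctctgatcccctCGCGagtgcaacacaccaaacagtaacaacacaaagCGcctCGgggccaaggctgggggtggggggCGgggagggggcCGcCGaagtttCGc
The Nfil3 window held 43 CG dinucleotides in 250 bases, the Gata3 window 19, the Id2 window 18 and the Zeb2 window 14, against a median of 6 over 32851 RefSeq promoter windows of the same length. Their G and C content was 81.6%, 70.0%, 62.8% and 57.6%, against a median of 52.4%. The other 3 Zeb2 windows held 9, 6 and 6 CG.

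Counts used per library ran from 5724685 to 15805270. Replicate 1 of male VAT Tregs stood apart: regions under 1000 bp took 5.63% of its counts, against 4.27% in replicate 2 and 3.64% to 4.42% in the other 6 libraries. The same library was the highest at the members. The 33 narrow member regions summed to 166 CPM in replicate 1 and 115 CPM in replicate 2 of male VAT Tregs, while female VAT Tregs had 85.0 and 86.5 CPM, male spleen Tregs 72.3 and 73.4 CPM, and CD4+ T cells 64.1 and 83.5 CPM. Both male VAT Treg libraries were above all others, with replicate 1 far above replicate 2. The 17 wide regions showed no such order, with 514 and 455 CPM in male VAT Tregs, 486 and 539 in those of females, 546 and 526 in male spleen Tregs and 423 and 515 in CD4+ T cells. Counts of member calls, and member regions and sums printed by library, are therefore given with and without that library where it matters. Called Zeb2 regions named without values, the gene lists and the markers are given with it only. Foxp3 checked the sort: a Foxp3 region at chrX:7582208-7585993 had 16.4 ± 3.43 CPM in male VAT Tregs and 1.85 ± 0.440 CPM in the RFP- cells, with 29.99 ± 4.05 CPM in female VAT Tregs and 13.6 ± 0.0173 CPM in spleen Tregs. Other Foxp3 regions were also called higher in male VAT Tregs than in the RFP- cells. The Foxp3 region chrX:7572009-7576644, with 33.7 ± 12.8 CPM in male VAT Tregs, was not called in that comparison. Among VAT Tregs the X-linked region chrX:7582208-7585993 was lower in males (-0.86 ± 0.20 log2 against females, edgeR adjusted p = 0.00286), and the part of X chromosome number in this was not tested.

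**Figure D1:**
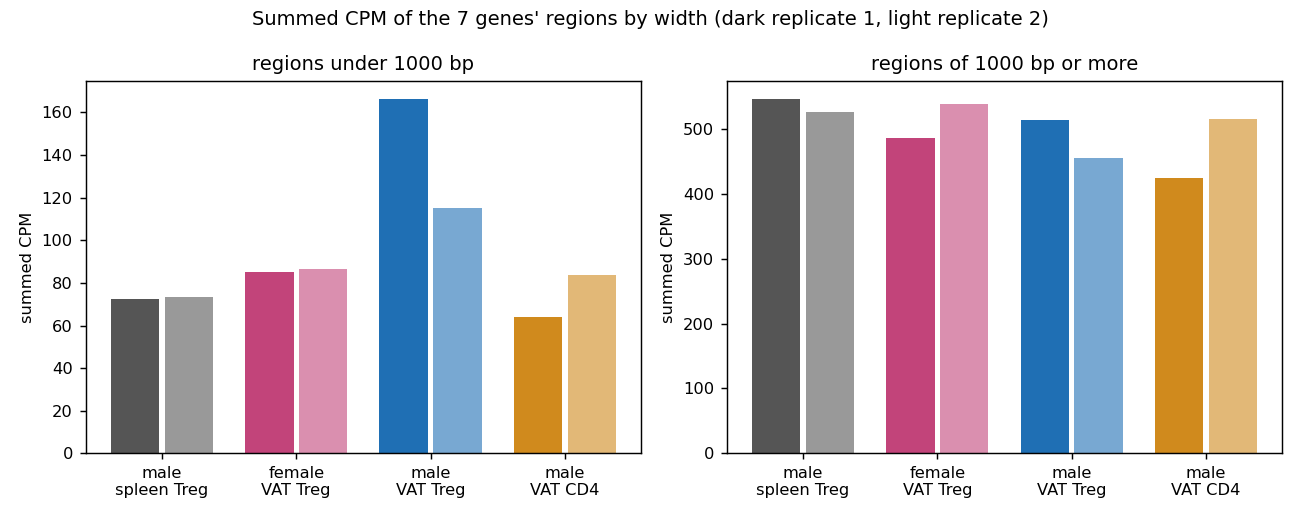
Summed CPM of the members' 33 regions under 1000 bp (left) and 17 regions of 1000 bp or more (right), 1 bar per library, dark for replicate 1 and light for replicate 2. On the left both male VAT Treg bars, at 166 and 115 CPM, stand above the other 6, which range from 64.1 to 86.5 CPM; on the right the groups overlap.

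Calls come from edgeR's quasi-likelihood test, with Benjamini-Hochberg adjustment over 45709 regions and a threshold of 0.05. The comparisons share libraries: male VAT Tregs enter 3 of them and male spleen Tregs 2. In this sorted bulk material, fewer cells with a region open and less signal per cell cannot be told apart.

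In male against female VAT Tregs, the sex comparison of the study, 5 of 50 regions were higher in males and none was lower, while 2.04% of all regions were called higher and 1.21% lower. All 5 were among the 33 narrow regions, a class of which 4.68% was called higher across the table. At an unadjusted p under 0.05, 12 member regions were higher and none lower, and neither DESeq2 nor limma-voom called one lower. The median log2 fold change of the 50 regions was 0.28, against 0.01 over all regions. In 23 of the 50 the 2 male and 2 female libraries did not overlap, near the 41.3% of all regions. Without replicate 1 of male VAT Tregs, 1 of the 5 was still called, a Zeb2 region, all 5 kept their sign, and 0.509% of all regions was called higher and 2.37% lower. Leaving out female VAT Treg replicate 1 or 2 left 2 or 1 of the 5.

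In male VAT against spleen Tregs, a comparison within males by the labels, 12 of 50 regions were higher in VAT and 1 was lower, against 4.64% and 2.09% of all regions. All 12 were narrow, a class with 10.2% called higher across the table, and the lower one, at Gata3, was wide, a class with 2.66% called lower. The median log2 fold change of the members was 0.44, against -0.01 over all regions. The 2 groups did not overlap in 35 of the 50, against 45.8% of all regions. Without replicate 1 of male VAT Tregs, 3 of the 13 calls were left, at Nfil3 and Zeb2, 12 kept their sign, and 1.55% of all regions was called higher and 2.15% lower. Leaving out spleen replicate 1 or 2 left 8 or 4 of the 13.

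In female VAT against male spleen Tregs, where tissue and sex cannot be told apart, 2 of 50 regions were higher and none was lower, against 1.18% and 0.197% of all regions. Both were narrow Nfil3 regions, in a class with 2.07% called higher. At an unadjusted p under 0.05, 5 regions were higher and 5 lower, and DESeq2 called 1 higher and limma-voom 2, with none lower by either. The members' median log2 fold change was 0.04, and the groups did not overlap in 22 of the 50, near the 41.9% of all regions. Leaving out either library of either group, or male VAT Treg replicate 1, left 1 of the 2 calls.

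In male VAT Tregs against CD4+ T cells of the same tissue, 11 of 50 regions were higher in Tregs and 1 was lower, against 5.18% and 2.51% of all regions. The 11 were narrow, a class with 10.3% called higher across the table, and the lower one was again a wide Gata3 region, though another than in the spleen comparison, in a class with 1.82% called lower. The median log2 fold change was 0.40, against -0.02 over all regions, and 27 of the 50 did not overlap, against 41.7% of all regions. Without replicate 1 of male VAT Tregs, 4 of the 12 calls were left, 11 kept their sign, and 1.83% of all regions was called higher and 1.73% lower. Leaving out CD4+ T cell replicate 1 or 2 left 6 or 5 of the 12.

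**Figure D2:**
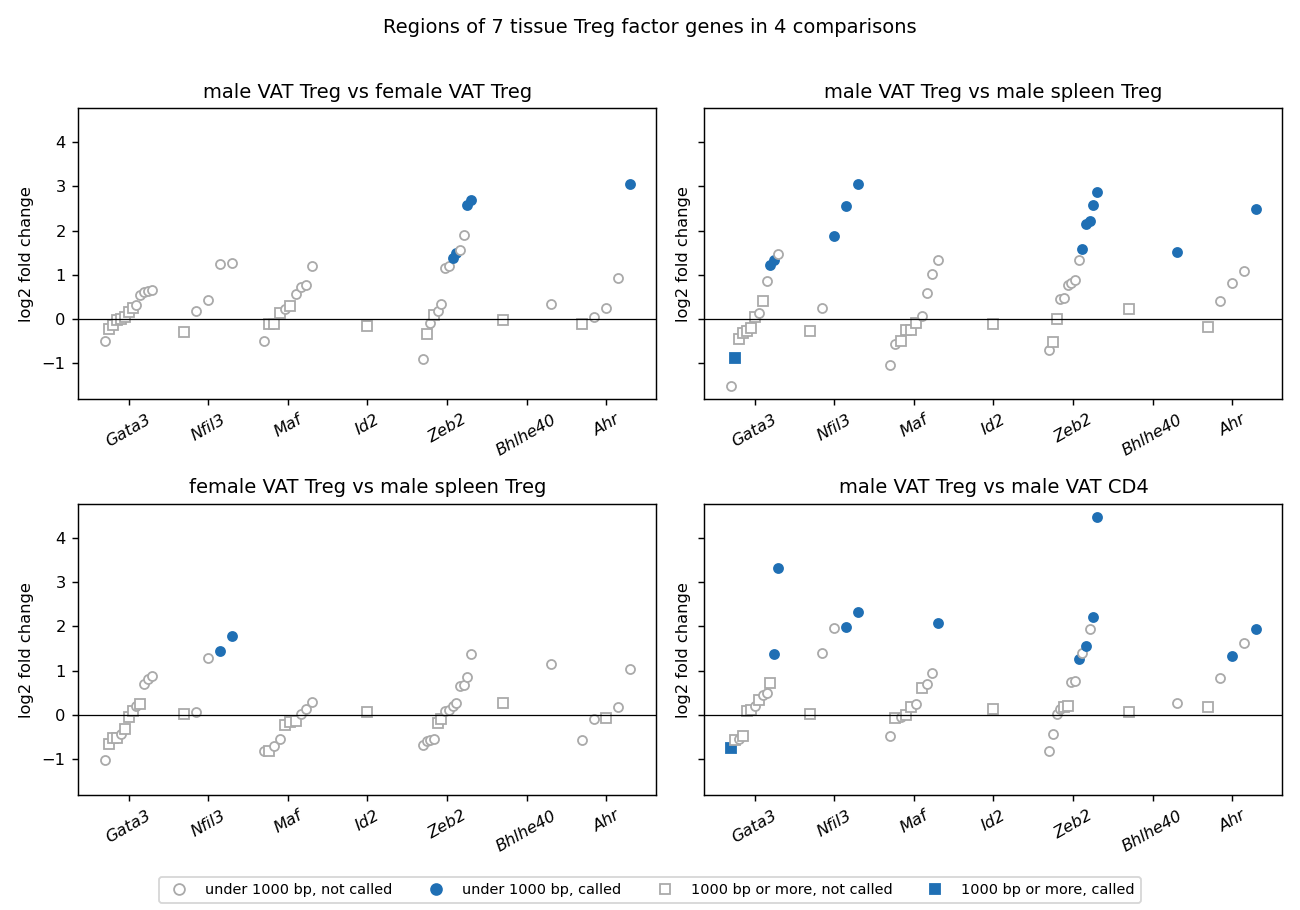
Log2 fold change (y axis) of each of the 50 regions, grouped by gene (x axis), in the 4 comparisons. Circles are regions under 1000 bp, squares regions of 1000 bp or more, and filled blue symbols passed an adjusted p of 0.05 in edgeR's quasi-likelihood test. Every filled circle is above 0, and both filled squares, at Gata3, are below it.

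Gata3, an activator best known from type 2 helper T cells and also carried by Tregs at barrier sites, gave calls in both directions. Its promoter lay in the widest member region, chr2:9871210-9882672, which reaches across the first part of the gene. That region had 94.0 and 74.7 CPM in male spleen Tregs, 60.7 and 76.4 in CD4+ T cells, 76.0 and 86.4 in VAT Tregs of females, and 77.4 and 69.8 in male VAT Tregs. The groups overlapped in all 4 comparisons, and the log2 fold changes of the 4 comparisons ran from -0.19 ± 0.17 to 0.10 ± 0.17.

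The 9 distal Gata3 regions lay 105 to 283 kb downstream of the gene, closer to it than to the next coding gene, Taf3. The farthest, chr2:9574216-9574503, had 2.18 and 3.88 CPM in male spleen Tregs, 2.70 and 7.36 in CD4+ T cells, 6.48 and 5.28 in VAT Tregs of females and 8.55 and 6.08 in male VAT Tregs. Both VAT Treg groups were above spleen, and the CD4+ T cell libraries lay far apart, 1 near spleen and 1 among the VAT Tregs. Male VAT Tregs were higher than spleen by 1.22 ± 0.31 log2 (edgeR adjusted p = 0.00352). Leaving out replicate 1 of male VAT Tregs or of spleen made this 0.93, with edgeR adjusted p of 0.143 and 0.157. For female VAT Tregs the difference from spleen was 0.89 ± 0.32 (edgeR adjusted p = 0.201).

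2 wide distal Gata3 regions fell in male VAT Tregs. The region chr2:9592277-9596012, 261 kb downstream and over the predicted gene Gm13218, had 30.2 and 38.8 CPM in CD4+ T cells, 25.1 and 26.5 in male spleen Tregs, 21.2 and 19.9 in VAT Tregs of females and 23.7 and 17.6 in male VAT Tregs. The CD4+ T cell libraries were the highest, clear of all 6 Treg libraries. Male VAT Tregs fell by 0.74 ± 0.20 log2 against them (edgeR adjusted p = 0.00555), a call lost when counts were scaled by library size alone and without replicate 2 of CD4+ T cells (-0.54, adjusted p = 0.232) or of male VAT Tregs (-0.55, adjusted p = 0.0754).

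The region chr2:9679981-9683770, 173 kb downstream, had 12.4 and 13.3 CPM in male spleen Tregs, 10.6 and 10.1 in CD4+ T cells, 8.08 and 8.21 in VAT Tregs of females and 5.51 and 8.74 in male VAT Tregs. Spleen was the highest group and did not overlap any other. The fall in male VAT Tregs against spleen was -0.89 ± 0.24 log2 (edgeR adjusted p = 0.00837), -0.56 with adjusted p = 0.267 without male VAT Treg replicate 1, and -0.82 with adjusted p = 0.127 without spleen replicate 2. In female VAT Tregs it was -0.66 ± 0.24 (edgeR adjusted p = 0.22).

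At 2 narrow Gata3 regions replicate 1 of male VAT Tregs was far above replicate 2. Just beside the last one, chr2:9683945-9684180 had 0.121 and 1.49 CPM in male spleen Tregs, 0.385 and 0.144 in CD4+ T cells, 1.99 and 1.29 in VAT Tregs of females and 3.93 and 1.07 in male VAT Tregs. In raw counts this was 72 in male VAT Tregs against 3 in CD4+ T cells, a ratio of 11.6 after scaling (95% exact counting interval 3.80 to 57.4, which covers counting error only), with edgeR adjusted p = 0.00242. Without male VAT Treg replicate 1 the adjusted p was 0.445, and without CD4+ T cell replicate 2 it was 0.115. Inside the gene, chr2:9884212-9884573, which also overlaps 4930412O13Rik and 9230102O04Rik, had 8.30 CPM in replicate 1 and 2.03 in replicate 2 of male VAT Tregs, 2.59 and 4.46 in VAT Tregs of females, 1.94 and 2.27 in spleen and 1.93 and 2.16 in CD4+ T cells. Here replicate 1 was alone above the rest and replicate 2 lay among the controls. It was called against spleen (1.33 ± 0.39 log2, edgeR adjusted p = 0.0154) and against CD4+ T cells (1.38 ± 0.43, adjusted p = 0.0247), and without that library the values turned to -0.071 (adjusted p = 0.964) and -0.020 (adjusted p = 0.994). Leaving out any spleen or CD4+ T cell library from its own comparison also lost the call, with edgeR adjusted p from 0.0868 to 0.152.

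Per kilobase, the densest Gata3 region was chr2:9659079-9659158, only 79 bp wide, with a mean of 20.8 CPM per kb. Division by so small a width gives a high density at a low level. Its mean was 1.65 CPM, against 76.9 CPM and 6.71 CPM per kb in the promoter region. The same limit holds for the other narrow regions called densest here. It had 3.27 and 2.45 CPM in male spleen Tregs, 0.578 and 2.16 in CD4+ T cells, 1.60 and 1.17 in VAT Tregs of females and 1.08 and 0.853 in male VAT Tregs. Spleen was above the other groups, but male VAT against spleen did not pass (-1.51 ± 0.55 log2, edgeR adjusted p = 0.0776). The other 6 Gata3 regions were not called in any comparison.

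Maf, a basic leucine zipper activator of IL-10 and other effector genes in T cells, gave 1 call among its 10 regions in 4 comparisons. It was a call higher than in CD4+ T cells, where 5.18% of all regions were called higher. In the comparisons with female VAT Tregs and with spleen no Maf region was called by edgeR, DESeq2 or limma-voom, while edgeR gave 2 regions at an unadjusted p under 0.05 in male against female VAT Tregs, 3 in male VAT against spleen and 2 in female VAT against spleen. The region over the gene, chr8:115704760-115711051, had 61.3 and 70.6 CPM in male spleen Tregs, 46.2 and 64.6 in CD4+ T cells, 57.6 and 62.3 in VAT Tregs of females and 60.3 and 51.3 in male VAT Tregs. The largest difference was between male VAT and spleen Tregs, whose libraries did not overlap, and none passed, with log2 fold changes from -0.24 ± 0.17 to 0.01 ± 0.18.

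The called Maf region was the most distant, chr8:116021871-116022054, 315 kb beyond the high-coordinate end of the gene. It had 2.98 and 2.77 CPM in male VAT Tregs, 0.898 and 1.64 in VAT Tregs of females, 0.970 and 1.25 in male spleen Tregs and 0.963 and 0.433 in CD4+ T cells. Both male VAT Treg libraries were above the other 6. Against CD4+ T cells the difference was 2.09 ± 0.67 log2 (edgeR adjusted p = 0.0308), a call lost in 8 of 19 alternatives. Among these were the fits without either CD4+ T cell library (adjusted p = 0.0795 and 0.343), without either male VAT Treg library (adjusted p = 0.196 and 0.0774) and without female VAT Treg replicate 2 (adjusted p = 0.0501). Toward the other end, the densest Maf region, chr8:115531453-115531564, with a mean of 21.5 CPM per kb, had 3.88 and 2.87 CPM in spleen, 1.54 and 2.88 in CD4+ T cells, 1.99 and 2.58 in VAT Tregs of females and 1.39 and 1.92 in male VAT Tregs. Spleen was higher than male VAT Tregs in both libraries, and the difference of -1.02 ± 0.46 log2 did not pass (edgeR adjusted p = 0.182).

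Ahr, the aryl hydrocarbon receptor, is activated by dietary, microbial and environmental ligands and is high in gut Tregs. Its wide region over the gene, chr12:35532039-35537764, had 37.7 and 40.2 CPM in male spleen Tregs, 28.7 and 32.6 in CD4+ T cells, 32.3 and 42.1 in VAT Tregs of females and 32.7 and 36.7 in male VAT Tregs, and was not called. 3 narrow regions lay in a row beyond the gene's high-coordinate end, at 27.9, 44.0 and 63.4 kb, with the next coding gene on that side, Agr3, 327 kb or more from each.

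The first, chr12:35562899-35563222, had 3.39 and 4.84 CPM in male spleen Tregs, 4.79 and 4.69 in VAT Tregs of females and 6.08 and 5.12 in male VAT Tregs, against 0.578 and 2.16 in CD4+ T cells. All 6 Treg libraries were above both CD4+ T cell libraries. Male VAT Tregs were higher than the CD4+ T cells by 1.94 ± 0.43 log2 (edgeR adjusted p = 0.000365), and the call was kept in 19 of 20 alternatives, missing only without CD4+ T cell replicate 1 (1.38, adjusted p = 0.081). Between male VAT and spleen Tregs the difference was 0.42 ± 0.33 (edgeR adjusted p = 0.542).

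The second, chr12:35578947-35579270, had 7.79 and 9.38 CPM in male VAT Tregs, 5.19 and 3.76 in VAT Tregs of females, 4.00 and 5.43 in male spleen Tregs and 4.81 and 2.16 in CD4+ T cells. Both libraries of male VAT Tregs exceeded every other. The difference from CD4+ T cells was 1.34 ± 0.34 log2 (edgeR adjusted p = 0.00267), while those from female VAT Tregs (0.92 ± 0.30, adjusted p = 0.0642) and spleen (0.82 ± 0.29, adjusted p = 0.0659) did not pass. The call was lost without CD4+ T cell replicate 2 (0.82, adjusted p = 0.278) and when scaling factors came from narrow regions.

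The third, chr12:35598349-35598516, had 2.91 and 2.67 CPM in male VAT Tregs, 0.199 and 0.469 in VAT Tregs of females, 0.606 and 0.418 in male spleen Tregs and 0.578 and 1.15 in CD4+ T cells. The 2 male VAT Treg libraries were close to each other and well above the other 6. Males were higher than females by 3.05 ± 0.76 log2 (edgeR adjusted p = 0.00522) and than spleen by 2.48 ± 0.68 (adjusted p = 0.00915). Leaving out male VAT Treg replicate 1 gave 2.98 and 2.40, with edgeR adjusted p of 0.0823 and 0.125. Without female VAT Treg replicate 1 or 2 the sex difference had edgeR adjusted p = 0.287 or 0.0853, and the spleen difference had 0.134 without spleen replicate 2 and 0.0551 without male VAT Treg replicate 2. On the other side of the gene, the densest Ahr region, chr12:35462685-35462850, with a mean of 17.0 CPM per kb, had 3.80 and 3.63 CPM in male VAT Tregs, 3.79 and 3.40 in VAT Tregs of females, 2.30 and 1.37 in spleen and 2.12 and 2.02 in CD4+ T cells. VAT Tregs of both sexes were above the other libraries there, but no comparison passed, the smallest edgeR adjusted p being 0.115.

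**Figure D3:**
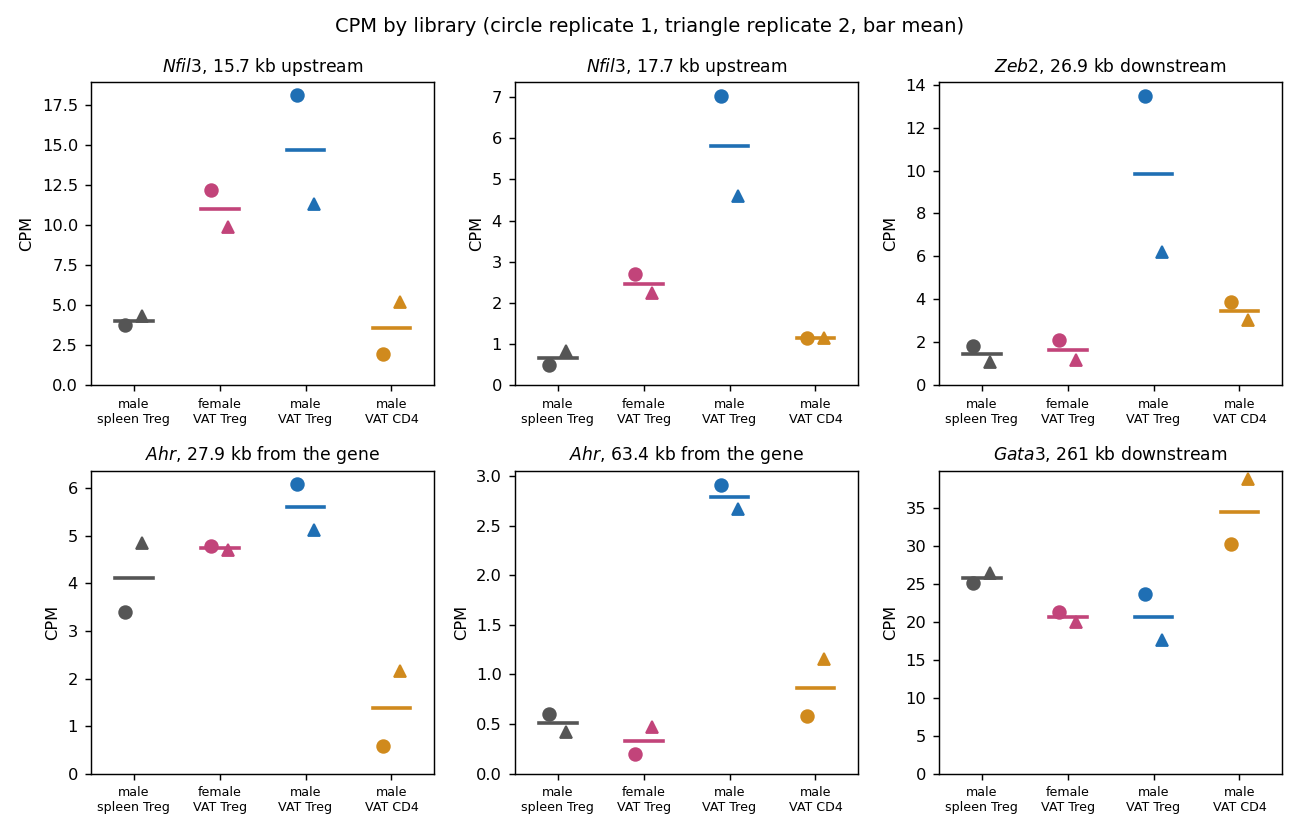
CPM (y axis, from 0) in each library at 6 called regions, by group (x axis), with a circle for replicate 1, a triangle for replicate 2 and a bar for the mean. Nfil3 regions are raised in VAT Tregs of both sexes, the Zeb2 region and the Ahr region at 63.4 kb in male VAT Tregs, the Ahr region at 27.9 kb is lowest in CD4+ T cells, and the Gata3 region at 261 kb is highest in them.

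Nfil3, a basic leucine zipper repressor induced by cytokines and present in early tissue Treg precursors, had calls in 3 of its 5 regions. All 3 were narrow and higher in male VAT Tregs than in spleen, where 10.2% of narrow regions were called higher. Its promoter region, chr13:52976525-52985552, had 51.6 and 49.5 CPM in male spleen Tregs, 35.8 and 46.7 in CD4+ T cells, 46.4 and 56.4 in VAT Tregs of females and 48.3 and 35.2 in male VAT Tregs. No comparison passed there, although both male VAT Treg libraries lay below both spleen libraries (-0.27 log2). The other 4 Nfil3 regions lay upstream, and 3 of them formed a group 15.7 to 18.7 kb from the gene body, inside the predicted gene Gm33424.

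At chr13:52998573-52998988, the densest Nfil3 region with a mean of 20.1 CPM per kb, male VAT Tregs had 18.1 and 11.3 CPM, female VAT Tregs 12.2 and 9.86, male spleen Tregs 3.76 and 4.30 and CD4+ T cells 1.93 and 5.19. All 4 VAT Treg libraries were above all 4 others. Against spleen the log2 difference was 1.87 ± 0.26 in males (edgeR adjusted p = 1.16e-09) and 1.43 ± 0.27 in females (adjusted p = 6.6e-05), and against CD4+ T cells it was 2.00 ± 0.29 (adjusted p = 8.33e-09). Each of these 3 calls was kept in all 20 alternatives, and without male VAT Treg replicate 1 the male values were 1.47 (edgeR adjusted p = 0.00102) and 1.60 (adjusted p = 0.000852). Between the sexes the difference was 0.43 ± 0.24 (edgeR adjusted p = 0.439), with overlapping libraries.

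At chr13:53000623-53000874, male VAT Tregs had 7.03 and 4.59 CPM, female VAT Tregs 2.69 and 2.23, CD4+ T cells 1.16 and 1.15 and male spleen Tregs 0.485 and 0.836. The 4 groups followed one another without overlap. The gain over spleen was 3.04 ± 0.47 log2 in males (edgeR adjusted p = 5.37e-08, kept in all 20 alternatives) and 1.79 ± 0.51 in females (adjusted p = 0.0418). The female call was lost in 13 of 20 alternatives, among them the fits without each spleen library (edgeR adjusted p = 0.332 and 0.138), each female library (0.514 and 0.152) and male VAT Treg replicate 1 (0.0733). Male VAT Tregs were higher than CD4+ T cells by 2.34 ± 0.49 (edgeR adjusted p = 0.000172; 0.0563 without male VAT Treg replicate 1) and than female VAT Tregs by 1.25 ± 0.41, which did not pass (adjusted p = 0.0649).

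The third of the group, chr13:53001532-53001633, had 2.15 and 1.28 CPM in male VAT Tregs, 0.299 and 1.17 in VAT Tregs of females, 0.578 and 0.721 in CD4+ T cells and 0.364 and 0.239 in spleen. Its call against spleen (2.57 ± 0.80 log2, edgeR adjusted p = 0.0288) was lost in 12 of 19 alternatives and in every fit that left out 1 library, with adjusted p from 0.058 to 0.299. At this depth, 46 raw counts stood against 7.

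**Figure D4:**
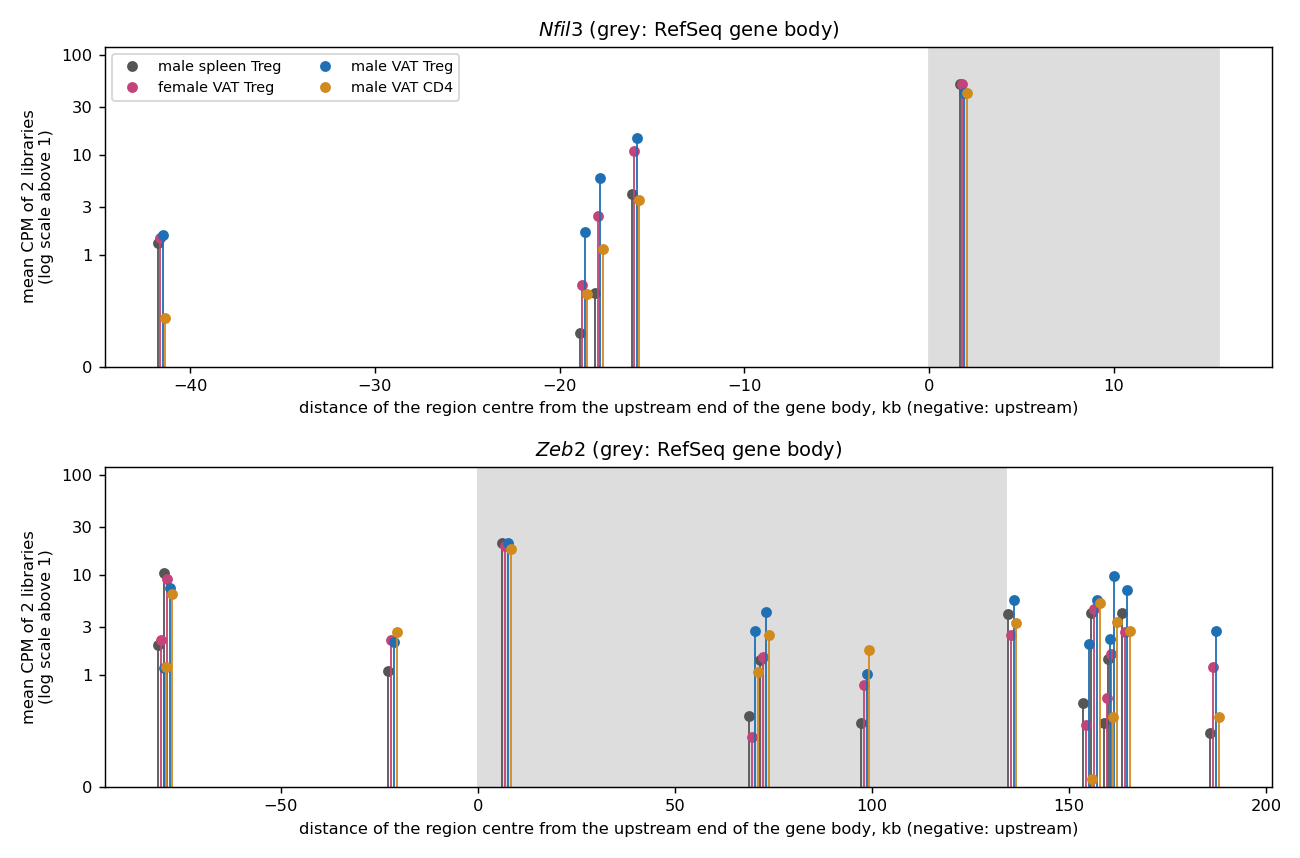
Mean CPM of 2 libraries (y axis, log scale above 1) at each region of Nfil3 (top) and Zeb2 (bottom), by distance in kb of the region's centre from the upstream end of the gene body (x axis, negative upstream), with the gene body in grey and the 4 groups drawn side by side. The region near each promoter is called in no comparison, while male VAT Tregs are the highest at the upstream group of Nfil3 and at several downstream regions of Zeb2.

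Zeb2, a zinc finger repressor linked to terminal differentiation of effector lymphocytes, had the most regions and the most calls: 4 of 14 higher in male VAT Tregs than in those of females, 5 of 14 higher than in spleen and 4 of 14 higher than in CD4+ T cells. Across all regions 2.04%, 4.64% and 5.18% were called higher in these comparisons. Of the 14 Zeb2 regions 12 were narrow, a class with 4.68%, 10.2% and 10.3% called higher. No Zeb2 region was lower by edgeR, DESeq2 or limma-voom, and edgeR gave 1 lower Zeb2 region at an unadjusted p under 0.05, against spleen. Its wide region at the promoter end, chr2:45108064-45112235, which also overlaps the antisense gene Zeb2os, had 22.7 and 18.6 CPM in male spleen Tregs, 20.2 and 15.9 in CD4+ T cells, 19.7 and 18.8 in VAT Tregs of females and 20.2 and 21.2 in male VAT Tregs. That region was level, with log2 fold changes from -0.09 ± 0.20 to 0.21 ± 0.21.

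The region with the smallest p of all 50 was Zeb2 chr2:44956280-44956623, 26.9 kb downstream of the gene and 28.6 kb from the next coding gene, Gtdc1. It had 13.5 and 6.18 CPM in male VAT Tregs, 2.09 and 1.17 in VAT Tregs of females, 1.82 and 1.07 in male spleen Tregs and 3.85 and 3.03 in CD4+ T cells. Both male VAT Treg libraries were above the other 6, and replicate 1 was more than 2 times replicate 2. Males were higher than females by 2.59 ± 0.37 log2 (edgeR adjusted p = 7.42e-09) and than spleen by 2.87 ± 0.37 (adjusted p = 3.39e-11), and both calls were kept in all 20 alternatives. Without male VAT Treg replicate 1 the values were 1.89 (edgeR adjusted p = 0.0112) and 2.17 (adjusted p = 0.00216). The gain over CD4+ T cells, 1.55 ± 0.36 (edgeR adjusted p = 0.000708), became 0.86 without that library and no longer passed (adjusted p = 0.403).

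The other downstream Zeb2 regions lay on the same stretch. At chr2:44952798-44953227, which is nearer to Gtdc1 (25.1 kb) than to Zeb2 (30.3 kb), male VAT Tregs had 8.62 and 5.44 CPM, female VAT Tregs 3.29 and 2.11, spleen 5.21 and 3.16 and CD4+ T cells 0.963 and 4.62. The male VAT Treg libraries topped all others, by 1.38 ± 0.35 log2 against females (edgeR adjusted p = 0.00696) and 1.27 ± 0.37 against CD4+ T cells (adjusted p = 0.0137), and without male VAT Treg replicate 1 neither passed (0.99 and 0.88, adjusted p = 0.242 and 0.345). The first was also lost without female VAT Treg replicate 2 (1.11, edgeR adjusted p = 0.311) and the second without CD4+ T cell replicate 1 (0.63, adjusted p = 0.571).

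Nearer still to Gtdc1, at 2.74 kb from it, Zeb2 region chr2:44930459-44930592 had 2.66 and 2.88 CPM in male VAT Tregs, 0.798 and 1.64 in VAT Tregs of females, 0.606 and 0.358 in spleen and 0.963 and 0.288 in CD4+ T cells. It was higher than spleen by 2.58 ± 0.67 log2 (edgeR adjusted p = 0.00493) and than CD4+ T cells by 2.21 ± 0.73 (adjusted p = 0.0383). The spleen call was lost without spleen replicate 2 (edgeR adjusted p = 0.12) or either male VAT Treg library (0.0692 and 0.0516), and the other in 11 of 19 alternatives, 6 of which left out 1 library and gave adjusted p from 0.0577 to 0.433. At chr2:44962747-44962828 the CD4+ T cells had 0 and 0.144 CPM, spleen 0.364 and 1.13, female VAT Tregs 0.399 and 0.704 and male VAT Tregs 2.28 and 1.81. That was 53 raw counts in male VAT Tregs against 1 in CD4+ T cells, a scaled ratio of 25.5 (95% exact counting interval 4.39 to 1028), with edgeR adjusted p = 0.00286. Without male VAT Treg replicate 1 the adjusted p was 0.0667, and without CD4+ T cell replicate 1 or 2 it was 0.121 or 0.0511. In both regions male VAT Tregs were above the other 6 libraries.

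Inside the gene, Zeb2 region chr2:45047463-45047636 had 3.67 and 1.92 CPM in male VAT Tregs, 0.299 and 0.587 in VAT Tregs of females, 0.606 and 0.657 in spleen and 1.16 and 1.01 in CD4+ T cells. It rose by 2.68 ± 0.70 log2 against females (edgeR adjusted p = 0.00877) and by 2.14 ± 0.63 against spleen (adjusted p = 0.0169), and without male VAT Treg replicate 1 the adjusted p was 0.296 and 0.36. Leaving out 1 female library gave edgeR adjusted p of 0.32 and 0.107 in the first, and leaving out 1 spleen library gave 0.0757 and 0.112 in the second. A further Zeb2 region inside the gene was called in the same comparisons and another, 26.1 kb downstream, against spleen. The densest Zeb2 region, chr2:44981768-44981945, 1.57 kb downstream with a mean of 22.05 CPM per kb, had 6.59 and 4.69 CPM in male VAT Tregs, 3.19 and 1.88 in VAT Tregs of females, 4.24 and 3.94 in spleen and 2.50 and 4.18 in CD4+ T cells. Male VAT Tregs were again the highest, and the difference from females, 1.15 ± 0.37, did not pass (edgeR adjusted p = 0.0528).

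In female VAT against male spleen Tregs no Zeb2 region was called by edgeR, DESeq2 or limma-voom, and none had an unadjusted p under 0.05 in any of the 3. At Zeb2 region chr2:44956280-44956623 that difference was 0.28 ± 0.45 log2 (edgeR adjusted p = 0.95).

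Bhlhe40, a repressor of the basic helix-loop-helix class that shapes cytokine output in T cells, had 2 regions, both inside the gene. The wide one, chr6:108657448-108663475, had 69.5 and 66.0 CPM in male spleen Tregs, 65.3 and 85.8 in CD4+ T cells, 80.5 and 82.4 in VAT Tregs of females and 87.5 and 72.0 in male VAT Tregs, a mean of 12.6 CPM per kb. VAT Tregs of both sexes were above spleen there, and neither difference passed (edgeR adjusted p = 0.482 in males and 0.708 in females). The narrow one, chr6:108665572-108665849, with a mean of 13.2 CPM per kb, had 5.64 and 4.05 CPM in male VAT Tregs, 3.69 and 3.99 in VAT Tregs of females, 3.47 and 4.62 in CD4+ T cells and 2.91 and 0.896 in spleen. Spleen was below all other libraries. The gain over spleen was 1.51 ± 0.40 log2 in males (edgeR adjusted p = 0.00579; 0.118 without male VAT Treg replicate 1 and 0.457 without spleen replicate 2) and 1.16 ± 0.42 in females (adjusted p = 0.197).

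Id2, the inhibitor of E proteins, had a single region of 9907 bp over the whole gene, chr12:25091262-25101169. It had 66.6 and 65.5 CPM in male spleen Tregs, 48.1 and 63.9 in CD4+ T cells, 64.6 and 73.0 in VAT Tregs of females and 72.0 and 50.3 in male VAT Tregs, a mean of 6.36 CPM per kb. The groups overlapped in every comparison, and neither edgeR, DESeq2 nor limma-voom called it or gave it an unadjusted p under 0.05. Log2 fold changes ran from -0.16 ± 0.17 to 0.13 ± 0.18.

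Counts summed over a gene's regions gave 1 value per member and library, tested over 19584 genes. A region listed for several genes counts for each, so these CPM have a larger total beneath them than the region CPM. Zeb2 was the only member whose sum was called between male and female VAT Tregs, where 2.89% of gene sums were called higher and 2.8% lower. Its sum was 56.9 and 53.9 CPM in male VAT Tregs, 36.2 and 33.6 in VAT Tregs of females, 39.4 and 33.7 in male spleen Tregs and 38.7 and 34.7 in CD4+ T cells. This group was clear of the other 3, which overlapped one another. The gain was 0.67 ± 0.13 log2 over females (edgeR adjusted p = 0.00783), 0.61 ± 0.13 over spleen (adjusted p = 0.00971) and 0.60 ± 0.13 over CD4+ T cells (adjusted p = 0.0116). Without male VAT Treg replicate 1 the 3 values were 0.65 (edgeR adjusted p = 0.00174), 0.59 (adjusted p = 0.00492) and 0.58 (adjusted p = 0.0106), so the Zeb2 sum did not rest on that library. Leaving out 1 female library lost the sex call (edgeR adjusted p = 0.119 and 0.159), leaving out spleen replicate 2 the spleen call (0.182) and leaving out 1 CD4+ T cell library that call (0.0526 and 0.175). The calls against spleen and CD4+ T cells were also lost when only regions within 10 kb of the gene were summed.

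Against spleen, where 3.08% of gene sums were called higher and 1.15% lower, no other member passed, and in female VAT against spleen, with 0.97% and 0.0715% called, none did. Ahr was the other member called against CD4+ T cells, a comparison with 2.48% of gene sums higher and 1.22% lower. Its sum was 37.2 and 45.4 CPM in male VAT Tregs, 33.1 and 37.4 in VAT Tregs of females, 33.5 and 36.3 in spleen and 28.1 and 28.2 in CD4+ T cells. CD4+ T cells were below all Treg libraries, and the difference of 0.55 ± 0.14 log2 (edgeR adjusted p = 0.0361) was lost in 10 of 16 alternatives, including every fit without 1 library except that without male VAT Treg replicate 1 (edgeR adjusted p = 0.00237), with adjusted p up to 0.594.

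The remaining sums did not pass the test. Nfil3 had 54.5 and 42.0 CPM in male VAT Tregs, 44.9 and 49.0 in VAT Tregs of females, 39.8 and 39.4 in spleen and 30.6 and 38.0 in CD4+ T cells. VAT Tregs of the 2 sexes overlapped, both lay above spleen, and spleen lay above CD4+ T cells. In Nfil3, 76.5% of the counts came from the promoter region, which was called in no comparison. Bhlhe40 had 65.1 and 60.0 CPM in male VAT Tregs, 60.2 and 59.4 in VAT Tregs of females, 52.5 and 63.6 in CD4+ T cells and 50.5 and 46.4 in spleen, which alone lay below the rest.

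Gata3 had 138 and 126 CPM in spleen, 132 and 124 in male VAT Tregs, 116 and 137 in CD4+ T cells and 118 and 124 in VAT Tregs of females. Maf had 84.3 and 88.4 CPM in spleen, 79.1 and 84.7 in male VAT Tregs, 70.2 and 76.4 in VAT Tregs of females and 70.1 and 74.9 in CD4+ T cells. Id2 had 46.2 and 50.2 CPM in VAT Tregs of females, 46.5 and 45.5 in spleen, 50.3 and 39.7 in male VAT Tregs and 36.8 and 44.9 in CD4+ T cells. Neighbours in these orders overlapped, except that male VAT Tregs lay above female VAT Tregs for Maf. Per kilobase of region, in male VAT Tregs Bhlhe40 was the highest of the members at 9.92 CPM per kb, followed by Ahr at 6.16 and Zeb2 at 6.08, and Gata3 was the lowest at 3.87.

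**Figure D5:**
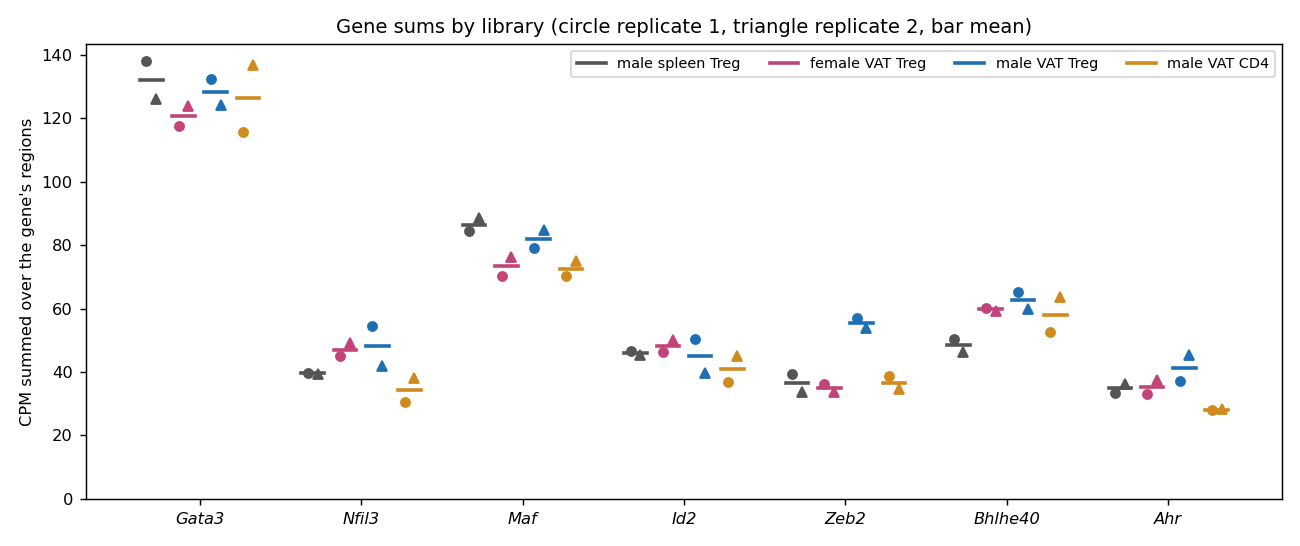
CPM summed over all regions of each gene (y axis, from 0) for the 7 members (x axis) in each library, with a circle for replicate 1, a triangle for replicate 2 and a bar for the mean, coloured by group. Zeb2 in male VAT Tregs, at 56.9 and 53.9 CPM, is the one case clear of the other 3 groups that passed in each comparison of male VAT Tregs.

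The genes whose sums followed each member most closely over the 8 libraries, by Pearson's r of log2 CPM among 15268 genes, were as follows. For Zeb2 they were Kctd12 (r = 0.987) and Fbp1 (0.975), for Ahr Zfat (0.984) and Nox1 (0.976), and for Nfil3 Ccr8 (0.974) and Eml2 (0.972). For Id2 they were Rnf19b (0.968) and Smu1 (0.966), for Gata3 Raph1 (0.961) and N6amt2 (0.947), for Bhlhe40 Fosl2 (0.948) and Mkrn3 (0.939), and for Maf Pvt1 (0.940) and Fam162a (0.939). These are the top of many correlations over libraries that share depth and the apart-standing library, and are given as a description.

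Among 62 regions of 19 partner and paralog factors, 2 were higher and 1 lower in males than in females among VAT Tregs, 3 higher and 8 lower in male VAT Tregs than in spleen, 2 higher and none lower in female VAT Tregs than in spleen, and 6 higher and none lower in male VAT Tregs than in CD4+ T cells. Across all regions, 2.04% were called higher and 1.21% lower between the sexes, and 4.64% and 2.09% in male VAT against spleen. In female VAT against spleen these shares were 1.18% and 0.197%, and against CD4+ T cells 5.18% and 2.51%. Hlf, a basic leucine zipper factor whose DNA sites resemble those of Nfil3, had a region at chr11:90350277-90350704 with 9.38 ± 3.31 CPM in male VAT Tregs, 5.51 ± 0.817 in VAT Tregs of females, 1.62 ± 0.408 in spleen and 3.73 ± 0.990 in CD4+ T cells. It rose in VAT Tregs of both sexes against spleen (2.49 ± 0.33 and 1.71 ± 0.35 log2, edgeR adjusted p = 1.89e-10 and 0.000484). Regions of Tef and Dbp, on the same list, went the other way in male VAT Tregs against spleen. The Tef region changed by -1.07 ± 0.25 log2 (edgeR adjusted p = 0.00109), and 2 Dbp regions by -0.51 ± 0.17 and -0.57 ± 0.18 (adjusted p = 0.0468 and 0.0317). Id3, a relative of Id2, fell in male VAT Tregs against spleen at 2 regions (by 1.17 ± 0.28 and 0.76 ± 0.20 log2, edgeR adjusted p = 0.00205 and 0.00427). Another Id3 region was higher in male VAT Tregs than in CD4+ T cells (0.87 ± 0.29 log2, edgeR adjusted p = 0.0429). Both regions higher in males than in females were at Arnt2 (0.83 ± 0.20 and 2.69 ± 0.63 log2, edgeR adjusted p = 0.00296 and 0.00217). The lower one was at Tcf3 (-0.64 ± 0.18 log2, edgeR adjusted p = 0.0245). A region of Bhlhe41, the paralog of Bhlhe40, was higher in male VAT Tregs than in CD4+ T cells (2.47 ± 0.65 log2, edgeR adjusted p = 0.0046).

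Of 9 regions of 5 AHR target genes, none was called in any comparison by edgeR, DESeq2 or limma-voom, and edgeR gave 1, 1, 1 and 0 of them an unadjusted p under 0.05 in the 4 comparisons in the order above. With only 9 regions and the low shares called across the table, given below, this says little about AHR targets. Of 130 regions of 14 other factors of fat and tissue Tregs, 25 were higher and 4 lower in male VAT Tregs than in spleen, 9 higher and none lower in female VAT Tregs than in spleen, 4 of them at Foxp3, 8 higher and 3 lower in male VAT Tregs than in those of females, all 3 at the X-linked Foxp3, and 29 higher and 8 lower in male VAT Tregs than in CD4+ T cells. Their median log2 fold change against spleen in males was 0.23, beside 0.44 for the members. Of 80 regions of 10 tissue Treg effector genes, such as the IL-33 receptor gene Il1rl1, 22 were higher and 4 lower in male VAT Tregs than in spleen, 4 higher and 1 lower in female VAT Tregs than in spleen, 9 higher and none lower in male VAT Tregs than in those of females, and 23 higher and 2 lower in male VAT Tregs than in CD4+ T cells. Beside all 3 lists, the shares of all regions called higher and lower were 4.64% and 2.09% in male VAT against spleen. They were 1.18% and 0.197% in female VAT against spleen, 2.04% and 1.21% between the sexes and 5.18% and 2.51% against CD4+ T cells. At chr1:40397444-40397845, Il1rl1 had 7.50 ± 7.14 CPM in male VAT Tregs and 2.18 ± 0.589 in VAT Tregs of females (1.82 ± 0.39 log2, edgeR adjusted p = 0.000733). The male SD was nearly as large as the mean, so the 2 male libraries lay far apart. With n = 2, these values place 1 male library inside the female range, so the difference rests on the other male library. No value without either male library is given here for that region.

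Markers of other cells had regions in every group. Of the innate lymphoid list, which matters here because such cells of fat also use Gata3, Id2 and Nfil3, 5 of 6 genes had regions, and they summed to 163 and 168 CPM in VAT Tregs of females, 194 and 164 in male VAT Tregs, 162 and 166 in spleen and 173 and 184 in CD4+ T cells. Of its 22 regions, 2 were higher in male than in female VAT Tregs, both at Il7r, and 5 were higher in male VAT Tregs than in spleen, of which 3 were at Il7r, beside 2.04% and 4.64% of all regions. Against CD4+ T cells 3 were higher, all at Il7r, and 2 lower, 1 at Il7r and 1 at Il5, beside 5.18% and 2.51% of all regions. Among B cell genes the 8 libraries ranged from 74.7 to 110 CPM, among myeloid genes from 126 to 181, among CD8 and NK genes from 119 to 142, among adipocyte genes from 76.6 to 110, lowest in the male VAT Treg libraries, and among stromal and endothelial genes from 139 to 159. No marker with a region was at 0 in all libraries. The part of such cells in the members' results was not tested.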

How the data were processed

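The authors deposited raw read counts per region for all 8 libraries in 1 table, and log2 CPM per library, per the file headers. Per the submitters' processing notes, Subread 1.6.2, featureCounts, HOMER 4.9 and limma were used. How regions were called is not given in the sources used here. The build is GRCm38/mm10, and region positions are printed as deposited.

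The table's 62205 entries gave 46624 distinct regions, of which 112 off chromosomes 1 to 19, X and Y, 1 of them mitochondrial, were left out. The mitochondrial region held 22.6% to 34.1% of counts. Counts were analysed in R 4.3.3 with edgeR 4.0.16: low-count filter (filterByExpr), TMM, 1 quasi-likelihood fit of all 8 libraries without a replicate block, Benjamini-Hochberg adjustment over all 45709 regions kept. Alternatives were DESeq2 1.42.0, limma 3.58.1 (voom, and the deposited log2 CPM), other scalings and filters, a replicate block and leaving out each library. The scripts were tested on simulated data. The members and gene lists were chosen with earlier results of these data known.

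Every member region was counted. Values by library are printed for each member's densest region, up to 5 called regions by smallest p, and the gene sum. The wide gene or promoter regions and the example regions of other genes were chosen after their values were seen.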

Additional observations from a re-analysis of the deposited data

How the results depend on the processing

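Counts of called member regions moved by more than 1.5 times in several settings. Under a mean of at least 2 CPM, only 3 of the 5 regions called against females stayed in the test. Against spleen 8 of the 13 did, and each region that stayed was called again in the same direction. For the other settings the cause was not tested. Male against female VAT Tregs had 5 regions higher, with 3 under TMM from narrow regions and under a mean of at least 2 CPM, 2 by DESeq2 and from the deposited log2 CPM, and 8 when only the 2 groups were fitted. Male VAT against spleen had 12 higher and 1 lower, with 7 higher under the CPM minimum and from the deposited log2 CPM, 5 higher and 0 lower by DESeq2, and 2 lower under TMM from narrow regions. Female VAT against spleen had 2 higher and 0 lower, with 1 higher under TMM from narrow or from wide regions, DESeq2, only the 2 groups, the replicate block or the deposited log2 CPM, and 1 lower with DESeq2 size factors, no filter or only the 2 groups. Male VAT Tregs against CD4+ T cells had 11 higher, with 6 under TMM from narrow regions, 5 by DESeq2 and 7 by limma-voom.

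Of the gene sums, 1 was higher against females, 1 against spleen, 0 in female VAT against spleen and 2 against CD4+ T cells. Library size alone gave 0 against spleen and 1 in female VAT against spleen. Limma-voom gave 1 against CD4+ T cells, only the 2 groups gave 0 there and 1 in female VAT against spleen, and sums within 10 kb gave 0 against spleen and 0 against CD4+ T cells.

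Leaving out 1 library gave 1 to 9 regions higher against females, 3 to 11 higher and 0 to 2 lower against spleen, 1 to 2 higher and 0 to 1 lower in female VAT against spleen, and 4 to 11 higher and 0 to 1 lower against CD4+ T cells. Gene sums then ranged from 0 to 2 against females, 0 to 3 against spleen and 0 to 2 against CD4+ T cells. The Gata3 region chr2:9884212-9884573 changed sign without male VAT Treg replicate 1, and its log2 fold change ranged from -0.071 to 1.95 against spleen and from -0.020 to 2.00 against CD4+ T cells when 1 library was left out.

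Same-numbered libraries showed no strong shared deviation (r from -0.146 to 0.0666). This cannot decide whether they were prepared together, which the labels do not say. With the replicate block, 4 regions were higher against females, 12 higher and 1 lower against spleen, 1 higher in female VAT against spleen and 10 higher and 1 lower against CD4+ T cells, and gene sums gave 1, 1, 0 and 2. A block with crossed numbers, added after seeing the data, gave 10 higher and 1 lower against CD4+ T cells. Depth limits the narrow regions, many of which held under 100 raw counts per group.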
